A study of Mus musculus with 6 samples.

Results

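Costimulatory receptors of the tumor necrosis factor receptor (TNFR) and CD28 families were followed in CD4+ T cells that met their peptide again in the presence of checkpoint antibodies. The 10 genes were *Tnfrsf4*, *Tnfrsf9*, *Tnfrsf18*, *Tnfrsf1b*, *Tnfrsf25*, *Cd27*, and *Fas* of the TNFR superfamily, *Icos* and *Cd28* of the CD28 family, and *Cd226*, an immunoglobulin superfamily receptor. They were chosen by name, with earlier results of these data known. Each matched a single identifier among the 47643 of the count table, and all 10 were among the 11877 genes with at least 10 reads over the 6 samples. The mice were of the Tg4 Tiger *Nr4a3*-Tocky strain, whose T cells carry a transgenic TCR for myelin basic protein (MBP) peptide, a Timer protein driven by *Nr4a3*, and an *Il10*-GFP reporter. Each mouse received 80 μg of 4Y MBP peptide subcutaneously and, after 24 h, 800 μg of an isotype pool, anti-PD1 (clone 29F.1A12), or anti-Lag3 (clone CB97W) by the intraperitoneal route. A second dose of 8 μg peptide followed after 30 min, and spleens were taken 4 h later for sorting of Timer Blue+Red+ CD4+ T cells. Each of the 3 groups held 2 samples, labelled as biological duplicates. Both sexes were used in the study, and the age of the mice was not given in the sources used here. All cells shared the transgenic TCR and the first peptide dose, and all came through a gate on the *Nr4a3* reporter, so cells that did not respond were not sampled.

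T cells need a signal through the TCR and a second, costimulatory signal. CD28 meets CD80 and CD86 on antigen-presenting cells and is present on resting T cells, whereas ICOS, its relative, appears after activation and binds ICOS ligand; both recruit PI3K. The TNFR superfamily members OX40 (*Tnfrsf4*), CD137 (*Tnfrsf9*), and GITR (*Tnfrsf18*) are induced or raised by activation and signal through TRAF adaptors to NF-κB, while CD27 is already present on naive T cells. TNFR2 (*Tnfrsf1b*) also recruits TRAF adaptors, and DR3 (*Tnfrsf25*) and FAS carry death domains. DNAM-1 (*Cd226*) binds CD155 and CD112 and competes with the inhibitory receptor TIGIT for these ligands.

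Total counts ran from 2107715 to 2648920 per sample, so that 3 reads amount to 1.11 to 1.44 CPM, the read count relative to the TMM-scaled library. PCR copies were not told apart, so such limits reflect counting error alone. Reads of these 3′ libraries mark the end of each transcript, so CPM was not divided by gene length when genes were set side by side. The gene *Gm42418* alone took 17.4% to 21.0% of the counts. The 7 CD4+ T cell markers summed to 1100 to 1284 CPM in every sample. Of these, *Cd5* passed with anti-PD1 (2.01-fold higher than isotype, edgeR adjusted p = 0.0015), while *Cd4*, *Cd3e*, and *Cd3d* were at 0.799-fold, 0.769-fold, and 0.791-fold and did not (unadjusted p = 0.0192, 0.0084, and 0.0147 in edgeR). The remaining markers, *Cd3g*, *Lat*, and *Trac*, were at 0.747-fold, 0.929-fold, and 1.05-fold and did not pass (unadjusted p = 0.0550, 0.399, and 0.511 in edgeR). *Cd79a* of B cells was at 0 throughout, and *Nr4a3* itself had 51.4 and 45.1 CPM with isotype, 29.7 and 29.4 CPM with anti-PD1, and 40.9 and 36.8 CPM with anti-Lag3. *Pdcd1* and *Lag3*, which encode the blocked receptors, had 12.3 to 17.1 CPM and 2.60 to 7.59 CPM over the samples. In sorted bulk samples, fewer cells of a type and less RNA per cell cannot be told apart.

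Of the 10 receptors, 5 differed between anti-PD1 and isotype, 0 between anti-Lag3 and isotype, and 1 between the antibodies, at an adjusted p-value under 0.05 from edgeR's quasi-likelihood test. The background over all genes tested was 0.901%, 0.0421%, and 0.303% in the same order. With anti-PD1, the transcripts for OX40, CD137, GITR, and ICOS rose and that for DNAM-1 fell, while *Tnfrsf1b*, *Tnfrsf25*, *Cd27*, *Fas*, and *Cd28* did not pass. The background was 0.631% for higher and 0.269% for lower genes with anti-PD1 against isotype, and 0.244% for higher genes between the antibodies. At an unadjusted p under 0.05 in edgeR there were 5, 4, and 4 receptors, with backgrounds of 8.12%, 5.96%, and 6.53%. The samples of the groups did not overlap in 5 of 10, 4 of 10, and 5 of 10 receptors, which is nearer to the 37.4%, 34.6%, and 35.9% of all genes. The median log2 fold change of the 10 receptors was 0.51 against isotype with anti-PD1, 0.16 with anti-Lag3, and 0.24 between the antibodies, where the medians over all genes were 0.00, 0.00, and −0.00. The receptors were chosen with earlier results known, so these counts and medians are descriptions of them. The comparisons of the antibodies with isotype share the isotype samples, and each value is given in its own right.

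**Figure D1:**
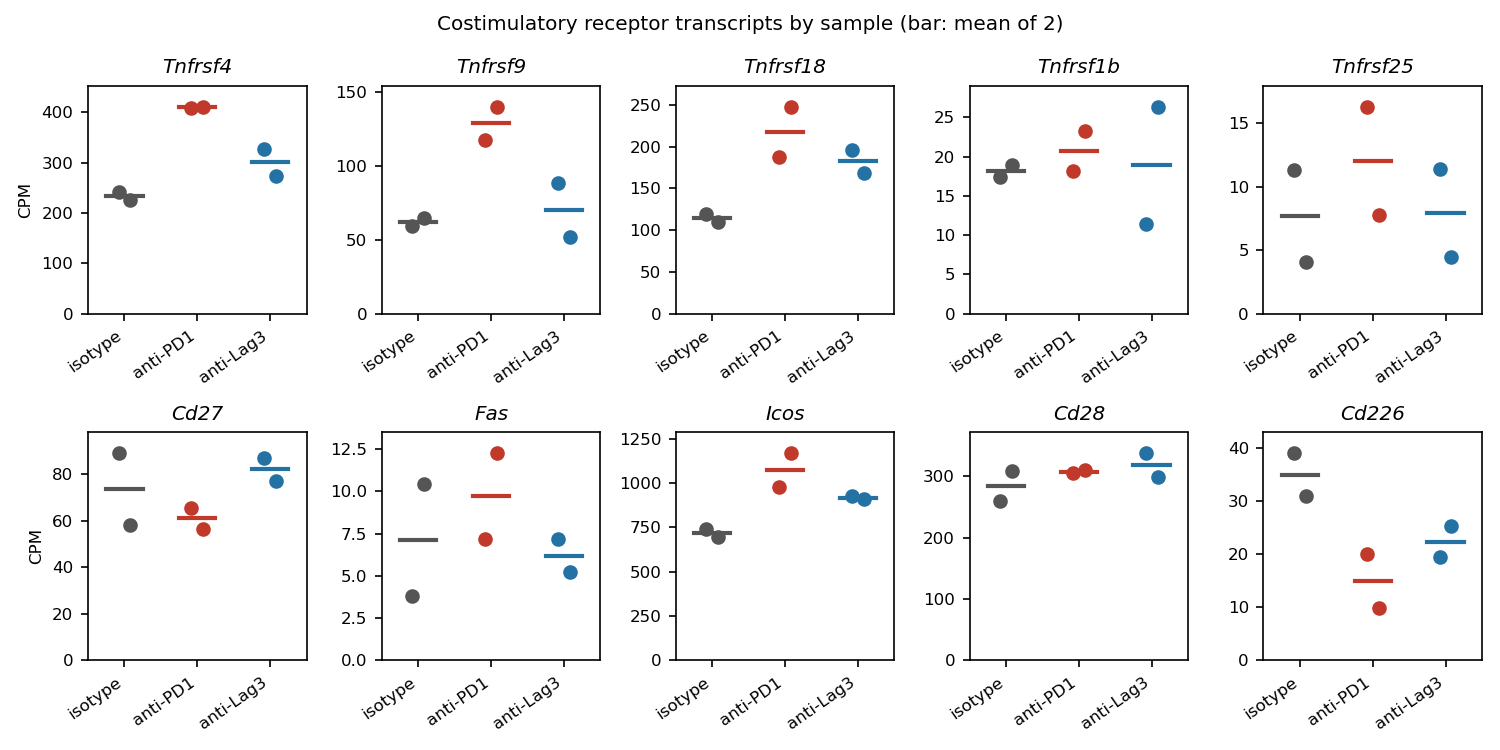
Transcript level of the 10 costimulatory receptors in CPM (linear axes from 0), with a point per sample and a bar at the mean of 2 for isotype (grey), anti-PD1 (red), and anti-Lag3 (blue). *Tnfrsf4*, *Tnfrsf9*, *Tnfrsf18*, and *Icos* lay above both isotype samples in both anti-PD1 samples, *Cd226* lay below, and *Cd28* overlapped, with group means from 284 to 319 CPM.

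*Tnfrsf4* encodes OX40, a receptor for OX40 ligand that supports survival of activated CD4+ T cells. Its isotype samples had 242 and 226 CPM, its anti-PD1 samples 408 and 411 CPM, and its anti-Lag3 samples 328 and 274 CPM. Both anti-PD1 samples lay above all other samples, and the anti-Lag3 samples lay between the other groups without touching either. Relative to isotype, OX40 transcript was 1.75-fold higher with anti-PD1 (95% interval 1.49 to 2.05, edgeR adjusted p = 1.5e-05). With anti-Lag3 the fold was 1.28 (95% interval 1.09 to 1.51, edgeR adjusted p = 0.608, unadjusted p = 0.0031). Between the antibodies, the fold was 1.36 (95% interval 1.16 to 1.59, edgeR adjusted p = 0.0766). That difference passed with limma-voom (adjusted p = 0.0245), and in edgeR with genes of few reads kept, with the replicate number as a block, and without anti-Lag3 replicate 1 (adjusted p = 0.0281, 0.0389, and 0.0085). It did not pass with DESeq2 (adjusted p = 0.0944).

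*Tnfrsf9* encodes CD137, also called 4-1BB, a receptor induced on T cells by antigen. It had 59.4 and 64.8 CPM with isotype, 117 and 140 CPM with anti-PD1, and 88.6 and 51.6 CPM with anti-Lag3. The anti-PD1 samples were the highest, while the anti-Lag3 samples fell on both sides of the isotype samples and differed from each other by 0.77 on the log2 scale. The rise with anti-PD1 was 2.07-fold (95% interval 1.60 to 2.69, edgeR adjusted p = 5.2e-04). *Tnfrsf9* was the receptor that also passed between the antibodies, 1.85-fold higher with anti-PD1 than with anti-Lag3 (95% interval 1.43 to 2.39, edgeR adjusted p = 0.0116). That call rested on each of 3 samples: without anti-PD1 replicate 1, anti-PD1 replicate 2, or anti-Lag3 replicate 2, the adjusted p from edgeR was 0.0863, 0.708, and 0.563, with log2 fold changes of 1.00, 0.75, and 0.53. With DESeq2 it was 0.0791. Against isotype, the anti-Lag3 fold was 1.12 (95% interval 0.855 to 1.47).

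*Tnfrsf18* encodes GITR, which is high on regulatory T cells and raised on conventional T cells by activation. It had 119 and 109 CPM with isotype, 187 and 248 CPM with anti-PD1, and 196 and 168 CPM with anti-Lag3. Every sample given a blocking antibody lay above both isotype samples, and the samples of the 2 antibody groups overlapped. The fold over isotype was 1.92 with anti-PD1 (95% interval 1.57 to 2.34, edgeR adjusted p = 4.3e-05) and 1.60 with anti-Lag3 (95% interval 1.31 to 1.95, edgeR adjusted p = 0.0508). Between the antibodies the interval ran from 0.990 to 1.45. The anti-Lag3 difference passed when anti-Lag3 replicate 2 was left out (edgeR adjusted p = 0.0089), when genes with few reads were kept (edgeR adjusted p = 0.0031), and with the replicate number as a block (edgeR adjusted p = 0.0169), and it did not pass with DESeq2.

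*Icos* was the most abundant of the 10, with 740 and 696 CPM with isotype, 981 and 1170 CPM with anti-PD1, and 928 and 910 CPM with anti-Lag3. The 3 groups did not overlap. The fold over isotype was 1.50 with anti-PD1 (95% interval 1.32 to 1.71, edgeR adjusted p = 8.6e-05), which was the smallest fold of the 4 receptors that rose. With anti-Lag3 it was 1.28 (95% interval 1.12 to 1.46, edgeR adjusted p = 0.312, or 0.0469 with genes of few reads kept), and between the antibodies 1.17 (95% interval 1.03 to 1.33, edgeR adjusted p = 0.608).

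*Cd226*, which encodes DNAM-1, was the receptor that fell. It had 39.1 and 31.0 CPM with isotype, 20.1 and 9.81 CPM with anti-PD1, and 19.4 and 25.3 CPM with anti-Lag3. Both isotype samples lay above all samples given a blocking antibody, and the antibody groups overlapped. With anti-PD1 the level was 0.423-fold that of isotype (95% interval 0.272 to 0.657, edgeR adjusted p = 0.0366), on 42 and 24 reads against 83 and 77. With anti-Lag3 it was 0.642-fold (95% interval 0.424 to 0.970, edgeR adjusted p = 0.800). The call was lost with DESeq2 (adjusted p = 0.299), with edgeR's filterByExpr (adjusted p = 0.0559), and without isotype replicate 1, isotype replicate 2, or anti-PD1 replicate 2 (edgeR adjusted p = 0.287, 0.0939, and 0.747), and the log2 fold change ran from −1.83 to −0.80 as each sample was left out.

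DNAM-1 is also carried by CD8+ T cells and NK cells, and the 6 markers of those cells summed to 52.3 to 58.9 CPM with isotype, 31.9 to 35.9 CPM with anti-PD1, and 33.8 to 35.8 CPM with anti-Lag3. Most of this was *Cd8b1*, at 27.8 to 49.5 CPM, and 0 of the 4 tested members of that list passed. *Ncr1* and *Klrb1c*, which define NK cells, had 1 read in 1 sample and 3 reads in 1 sample. Markers of B cells (16.1 to 18.4 CPM with isotype, 4.64 to 6.71 CPM with the blocking antibodies, 0 of 5 tested passing) and of macrophages and dendritic cells (56.4 to 76.3 CPM and 19.2 to 37.1 CPM, 1 of 8 passing, *C1qa*) were also higher in sum with isotype. Of these, 1 of 5 and 1 of 8 had a positive log2 fold change with anti-PD1 against isotype, *Cd22* and *Cd68*. *Cd68* had 2.83 and 2.01 CPM with isotype and 5.75 and 3.68 CPM with anti-PD1. The part of cells with any of these markers in the *Cd226* difference was not tested. Markers of regulatory T cells, in which OX40, GITR, and ICOS are abundant, summed to 656 to 708 CPM with isotype, 678 to 777 CPM with anti-PD1, and 632 to 790 CPM with anti-Lag3, and so overlapped. Most of each sum was *Il2ra* (416 to 571 CPM) and *Ikzf2* (170 to 194 CPM), and 0 of the 6 markers passed in any comparison. The paper also counts *Il2ra* as a T cell activation gene. With anti-PD1, *Gpr83* was at 0.519-fold and *Ikzf4* at 1.62-fold of isotype (unadjusted p = 0.0116 and 0.0494 in edgeR). *Foxp3*, which defines regulatory T cells, had 2.36 and 16.1 CPM with isotype, 3.35 and 6.13 CPM with anti-PD1, and 5.06 and 12.3 CPM with anti-Lag3.

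Among the receptors that did not pass, *Cd28* and *Cd27* had enough reads to bound a change. *Cd28* had 260 and 309 CPM with isotype, 305 and 311 CPM with anti-PD1, and 338 and 299 CPM with anti-Lag3, and the groups overlapped. Its 95% intervals against isotype ran from 0.920-fold to 1.27-fold with anti-PD1 and from 0.953-fold to 1.31-fold with anti-Lag3, so that the interval with anti-PD1 ended below the lower bounds for *Tnfrsf4*, *Tnfrsf9*, *Tnfrsf18*, and *Icos*. *Cd27* had 89.1 and 58.0 CPM with isotype, 65.6 and 56.4 CPM with anti-PD1, and 86.9 and 77.3 CPM with anti-Lag3. Its isotype samples overlapped both other groups, and its fold was 0.833 with anti-PD1 (95% interval 0.636 to 1.09). *Cd27* was lower in both anti-PD1 samples than in both anti-Lag3 samples, a fold of 0.743 that did not pass (95% interval 0.570 to 0.969, edgeR adjusted p = 0.710).

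*Tnfrsf1b*, *Tnfrsf25*, and *Fas* were the least abundant, and their intervals were the widest of the 10 against isotype. *Tnfrsf1b* had 17.4 and 18.9 CPM with isotype, 18.2 and 23.3 CPM with anti-PD1, and 11.4 and 26.4 CPM with anti-Lag3, and the anti-Lag3 samples spanned all others. *Tnfrsf25* had 11.3 and 4.03 CPM, 16.3 and 7.77 CPM, and 11.4 and 4.46 CPM in the same order, so that the samples of a group differed more than the groups did. *Fas* had 8 and 26 reads with isotype, 15 and 30 with anti-PD1, and 17 and 14 with anti-Lag3, which overlapped. Against isotype, the 95% intervals with anti-PD1 ran from 0.708-fold to 1.85-fold for *Tnfrsf1b*, from 0.773-fold to 3.22-fold for *Tnfrsf25*, and from 0.664-fold to 2.75-fold for *Fas*. The intervals of *Tnfrsf25* and *Fas* hold the folds of all 4 receptors that rose, and that of *Tnfrsf1b* holds those of *Tnfrsf4* and *Icos* but ends below those of *Tnfrsf9* and *Tnfrsf18*.

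**Figure D2:**
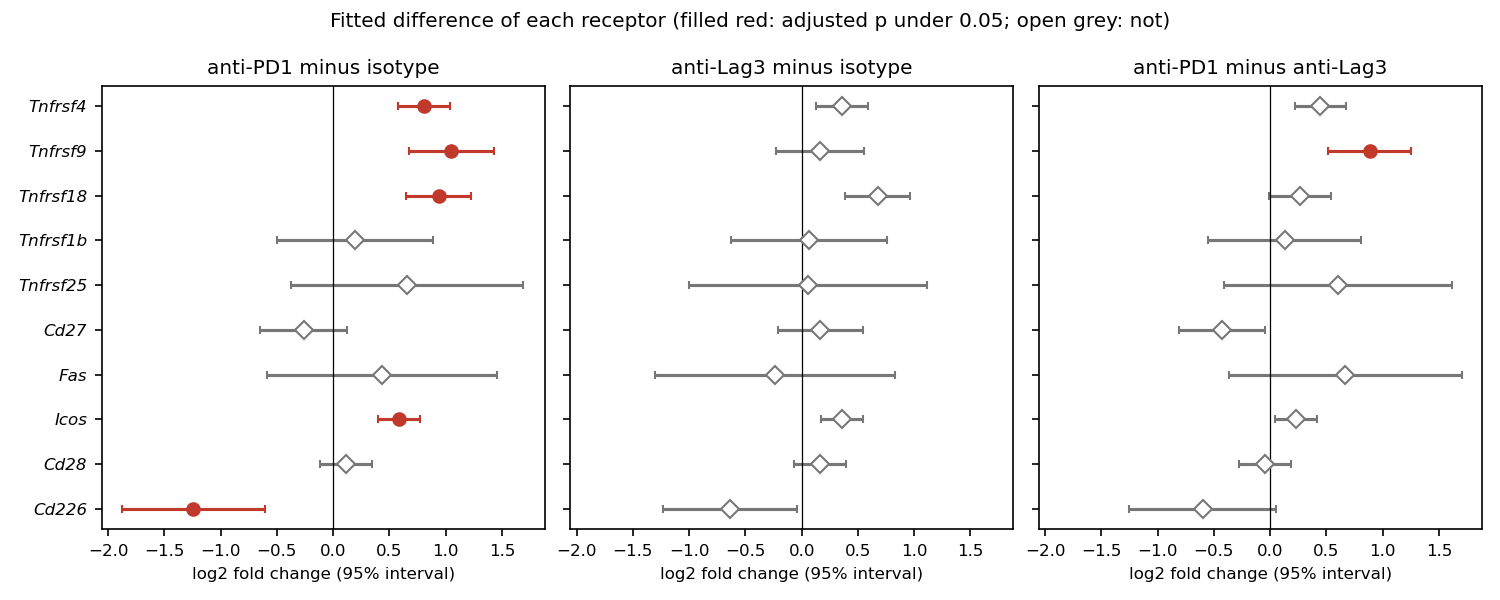
Fitted log2 fold change of each receptor (points) with its 95% interval (bars) for the 3 comparisons, filled red where the edgeR adjusted p was under 0.05 and open grey where it was not. With anti-PD1, the whole interval lay to the right of 0 for 4 receptors and to the left for *Cd226*, while the intervals of *Tnfrsf25* and *Fas* were the widest.

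The rises changed the order of the receptors. With isotype, *Icos* was followed by *Cd28*, *Tnfrsf4*, *Tnfrsf18*, *Cd27*, *Tnfrsf9*, *Cd226*, *Tnfrsf1b*, *Tnfrsf25*, and *Fas*, and the samples of *Cd27* and *Tnfrsf9* overlapped, as did those of *Tnfrsf25* and *Fas*. With anti-PD1, both samples of *Tnfrsf4* lay above both of *Cd28*, and both samples of *Tnfrsf9* lay above both of *Cd27*. At the lower end, *Tnfrsf1b*, *Cd226*, *Tnfrsf25*, and *Fas* followed, each overlapping its neighbour. With anti-Lag3 the order was as with isotype, and *Cd28* and *Tnfrsf4*, *Cd27* and *Tnfrsf9*, *Cd226* and *Tnfrsf1b*, and *Tnfrsf25* and *Fas* overlapped. Ratios within a sample do not depend on library size. There were 2.72 and 3.90 *Tnfrsf4* reads for each *Cd27* read with isotype, 6.21 and 7.28 with anti-PD1, and 3.77 and 3.55 with anti-Lag3. For *Icos* and *Cd28*, which lie in a cluster of related genes, the ratio of reads was 2.85 and 2.25, 3.22 and 3.76, and 2.75 and 3.04. Both ratios were higher in both anti-PD1 samples than in all other samples, as was *Tnfrsf9* over *Cd27*. Each set a receptor that rose over a receptor that did not pass, so their direction follows from the levels above. *Tnfrsf4* over *Tnfrsf1b* did not share this, with 22.4 and 17.6 with anti-PD1 and 28.8 and 10.4 with anti-Lag3. *Tnfrsf18* over *Tnfrsf4* overlapped, with 0.490 and 0.482 with isotype, 0.459 and 0.603 with anti-PD1, and 0.598 and 0.614 with anti-Lag3. Against either other group alone, 2 samples against 2 have a smallest exact permutation p of 0.333, which cannot reach 0.05. The ratios were not tested.

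The 10 receptors together had 1581 and 1527 CPM with isotype, 2126 and 2389 CPM with anti-PD1, and 2014 and 1842 CPM with anti-Lag3, of which *Icos* made up 45.6% to 49.4% in every sample. The share of *Tnfrsf4* was 15.3% and 14.8% with isotype and 19.2% and 17.2% with anti-PD1. The share of *Cd28* was 16.4% and 20.2% with isotype and 14.3% and 13.0% with anti-PD1, and that of *Cd226* went from 2.47% and 2.03% to 0.947% and 0.411%.

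**Figure D3:**
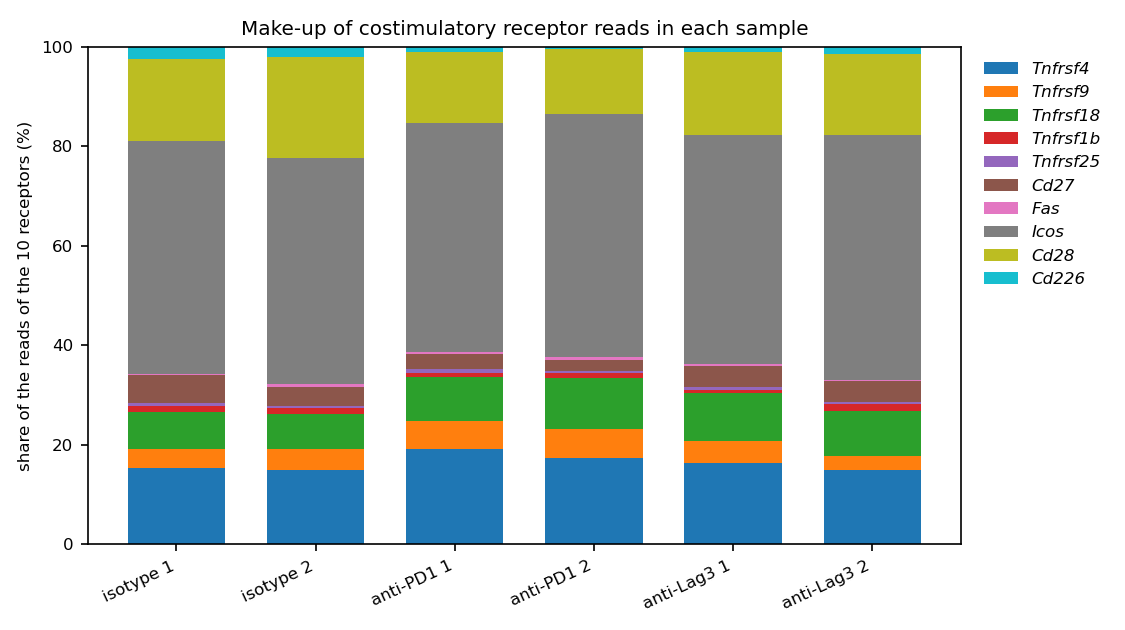
Share of each receptor among the reads of the 10 receptors (%), a stacked bar per sample. *Icos* filled 45.6% to 49.4% of each bar, and *Tnfrsf4*, *Tnfrsf9*, and *Tnfrsf18* together took a larger part in the anti-PD1 samples than in the isotype samples.

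A single library carried part of the calls with anti-PD1. Without anti-PD1 replicate 2, *Tnfrsf4* passed alone, with *Tnfrsf9*, *Tnfrsf18*, and *Icos* at log2 fold changes of 0.91, 0.72, and 0.45 (edgeR adjusted p = 0.139, 0.0605, and 0.134), where the lone sample is taken to vary like the other groups. That library had the higher level of the pair in *Tnfrsf9*, *Tnfrsf18*, and *Icos*, and the lower in *Cd226*. Without any other single sample, the 4 rises passed. Over the 6 fits with a sample left out, the log2 fold change ran from 0.76 to 0.86 for *Tnfrsf4*, from 0.91 to 1.17 for *Tnfrsf9*, from 0.72 to 1.12 for *Tnfrsf18*, and from 0.45 to 0.70 for *Icos*.

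**Figure D4:**
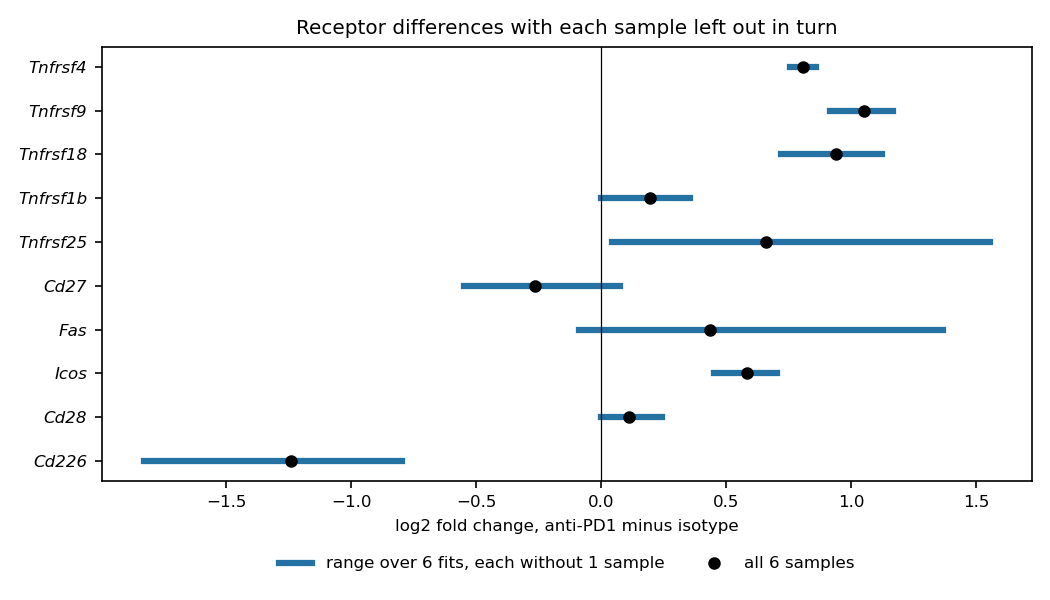
Log2 fold change of each receptor between anti-PD1 and isotype with all 6 samples (black points) and its range over 6 fits that each left out a sample (blue lines). The ranges of *Tnfrsf4*, *Tnfrsf9*, *Tnfrsf18*, and *Icos* stayed above 0 and that of *Cd226* below 0, while those of *Tnfrsf1b*, *Cd27*, *Fas*, and *Cd28* crossed 0.

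On GRCm38, the genes for 5 of the 7 TNFR members lie on chromosome 4. *Tnfrsf4* (156013843 to 156016612) and *Tnfrsf18* (156026164 to 156028895) are 9551 bp apart on the same strand, and both rose with anti-PD1. *Tnfrsf1b* (145213463 to 145246870) and *Tnfrsf25* (152115934 to 152120119) lie on the same chromosome as *Tnfrsf9* (150914562 to 150946102) and did not pass. *Sdf4*, which was picked out after its values were seen, ends 232 bp before *Tnfrsf4* on the same strand and rose with anti-PD1 (log2 fold change 0.60, edgeR adjusted p = 0.0059), with 155 and 161 CPM with isotype and 219 and 258 CPM with anti-PD1. Whether reads of the neighbours were shared was not tested. On chromosome 1, *Ctla4* lies between *Cd28* (60716800 to 60773359) and *Icos* (60977927 to 61000320), and it had 70.2 and 60.8 CPM with isotype, 111 and 89.5 CPM with anti-PD1, and 88.6 and 91.4 CPM with anti-Lag3. *Ctla4*, the inhibitory member of that cluster, did not pass with anti-PD1 (log2 fold change 0.61, edgeR adjusted p = 0.0739). *Cd27* lies on chromosome 6 (125232622 to 125237010) and *Fas* on chromosome 19 (34290666 to 34327772). *Camta1* overlaps *Tnfrsf9* and *Gm16008* overlaps *Tnfrsf18* on the other strand, with 89 and 3 reads over all samples, and *Gm37039* overlaps *Icos* on its own strand with 153 reads, against 1223, 2438, and 12857 reads of the receptors.

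Because NFAT and NF-κB act downstream of the TCR and of TNFR members, the 250 bases before each start site were searched for their letters. From the RefSeq promoter table (GRCm38.p6), 7 of the 10 receptors were searched, with 9 start sites. The table had no entry for *Icos* and *Cd28*, and *Cd226*, the receptor that fell, was left out of the search. The NFAT core GGAAA was counted on both strands, as were the AP-1 site TGANTCA and the NF-κB consensus, and NFAT cores may overlap NF-κB matches. NFAT cores were in 8 of the 9 windows (55.6% of all 32851 promoters), AP-1 sites in 2 (6.75% of all), and NF-κB matches in 2 (7.25% of all). The NF-κB matches were before the second listed start sites of *Tnfrsf9*, which rose, and *Tnfrsf25*, which did not pass. The AP-1 sites were before the second start site of *Tnfrsf9* and before *Fas*, which did not pass. The window without an NFAT core was that of *Tnfrsf1b*, which did not pass either. Shown are the stretches outside annotated exons for the 3 TNFR genes that rose, then *Cd27* and *Tnfrsf25* for contrast, 5′ to 3′ on the strand of the gene, with capitals for the motif letters.
Tnfrsf4, chr4:156013611-156013694, plus strand: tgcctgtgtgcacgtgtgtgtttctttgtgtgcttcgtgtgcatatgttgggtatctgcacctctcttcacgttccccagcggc
Tnfrsf18, chr4:156026072-156026163, plus strand: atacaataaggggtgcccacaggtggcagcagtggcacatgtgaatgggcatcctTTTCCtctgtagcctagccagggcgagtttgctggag
Tnfrsf9 first start, chr4:150919905-150920154, plus strand: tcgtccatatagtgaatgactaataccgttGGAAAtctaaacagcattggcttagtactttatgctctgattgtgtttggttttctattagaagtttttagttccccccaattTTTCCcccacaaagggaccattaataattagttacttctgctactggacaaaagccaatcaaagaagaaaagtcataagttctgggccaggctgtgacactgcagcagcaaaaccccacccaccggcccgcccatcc
Cd27, chr6:125237028-125237277, minus strand: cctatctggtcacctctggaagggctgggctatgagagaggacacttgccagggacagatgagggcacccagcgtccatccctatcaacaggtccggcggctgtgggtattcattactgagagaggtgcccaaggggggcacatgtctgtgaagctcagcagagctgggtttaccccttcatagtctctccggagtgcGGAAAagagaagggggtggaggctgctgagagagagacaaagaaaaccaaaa
Tnfrsf25 second start, chr4:152116115-152116342, plus strand: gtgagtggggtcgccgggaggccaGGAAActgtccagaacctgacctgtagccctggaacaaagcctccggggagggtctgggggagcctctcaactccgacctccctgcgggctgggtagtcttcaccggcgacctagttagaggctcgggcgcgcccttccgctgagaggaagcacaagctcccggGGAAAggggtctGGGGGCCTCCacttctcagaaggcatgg
The 2 overlapping NF-κB matches of *Tnfrsf9*, the first beginning 43 bases before its second start site, lie within an annotated exon of *Tnfrsf9* and are not printed. The *Tnfrsf4* stretch printed holds none of these letters, and its single NFAT core lies farther from the start, within an exon of *Sdf4*. These matches describe the letters of the windows and do not show binding.

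The other genes of the pathway were read from 6 lists of 90 genes, of which 70 were tested. With anti-PD1, 3 were higher than isotype and 2 lower, 1 was higher with anti-Lag3, and 2 were higher and 1 lower between the antibodies. Over all genes tested, 0.901%, 0.0421%, and 0.303% passed in these comparisons. The lists were chosen with earlier results known, so these counts are descriptions. The median log2 fold change over the 70 was 0.01, 0.01, and 0.00, near that of all genes. These counts moved with single samples. Against isotype, 1 gene passed with anti-PD1 without isotype replicate 2 and 2 without anti-PD1 replicate 1. With anti-Lag3, 0 passed without isotype replicate 2, either anti-PD1 replicate, or anti-Lag3 replicate 1, and 2 without isotype replicate 1. Between the antibodies, 0 passed without either anti-PD1 replicate and 1 without either anti-Lag3 replicate.

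Among 9 tested of 21 other TNFR superfamily receptors, 0 passed with either antibody, and 0 and 0 had an unadjusted p under 0.05 in edgeR. The most abundant, *Tnfrsf13b*, had 9.90 to 18.9 CPM. Of 6 other CD28 and CD226 family receptors, 0 passed, with 3 at an unadjusted p under 0.05 with anti-PD1 and 1 with anti-Lag3 in edgeR. *Btla*, an inhibitory receptor and the most abundant on this scale over all samples, had 71.1 to 102 CPM.

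Most ligands were scarce in the sorted T cells, and 5 of 13 were tested. *Tnfsf18*, the GITR ligand, had 0 reads in all samples, and *Tnfsf4* and *Tnfsf9*, the ligands of OX40 and CD137, had at most 4 reads and 1 read in a sample. *Lta*, which encodes lymphotoxin alpha, a ligand of TNFR2, had 28.3 and 62.8 CPM with isotype, 8.15 and 18.4 CPM with anti-PD1, and 36.7 and 34.9 CPM with anti-Lag3. It fell with anti-PD1 relative to isotype (log2 fold change −1.76, standard error 0.32, edgeR adjusted p = 7.8e-04) and was lower than with anti-Lag3 (−1.40, edgeR adjusted p = 0.0420). *Pvr*, a ligand of DNAM-1, had 18.1 to 31.6 CPM over the samples and its groups overlapped.

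Of 14 TRAF and death domain adaptors, 0 passed against isotype with either antibody, with 2 and 0 at an unadjusted p under 0.05 in edgeR. *Traf1*, an adaptor of CD137 and TNFR2, had 50.9 and 38.6 CPM with isotype, 66.1 and 76.1 CPM with anti-PD1, and 35.4 and 36.8 CPM with anti-Lag3, and was higher with anti-PD1 than with anti-Lag3 (log2 fold change 0.98, edgeR adjusted p = 0.0158). *Casp8* was the most abundant, at 63.7 to 92.6 CPM.

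Of 19 NF-κB factors and inhibitors, 2 were higher with anti-PD1. *Tnip3*, whose product binds A20 and restrains NF-κB, had 27.8 and 24.2 CPM with isotype, 116 and 110 CPM with anti-PD1, and 75.9 and 46.1 CPM with anti-Lag3, so that the groups did not overlap. It was 4.35-fold above isotype with anti-PD1 (edgeR adjusted p = 8.8e-09) and 2.34-fold with anti-Lag3 (edgeR adjusted p = 0.0161), and 1.86-fold higher with anti-PD1 than with anti-Lag3 (edgeR adjusted p = 0.0167). *Bcl3*, an atypical IκB protein, was 2.19-fold higher with anti-PD1 (edgeR adjusted p = 0.0050). *Nfkbia*, the inhibitor IκBα and the most abundant of the list, had 440 and 522 CPM with isotype and 544 and 530 CPM with anti-PD1, and did not pass.

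Of 17 transducers of CD28 and ICOS signals, *Malt1*, the paracaspase that links the antigen receptor and CD28 to NF-κB, was higher with anti-PD1 (109 and 64.8 CPM with isotype, 193 and 169 CPM with anti-PD1, edgeR adjusted p = 7.6e-05). *Lcp2*, the adaptor SLP-76, fell from 175 and 168 CPM to 122 and 105 CPM (log2 fold change −0.59, edgeR adjusted p = 0.0157). *Lck*, the kinase that starts TCR signaling and the most abundant of the list, had 281 to 315 CPM with isotype and 237 to 272 CPM with anti-PD1 and did not pass.

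**Figure D5:**
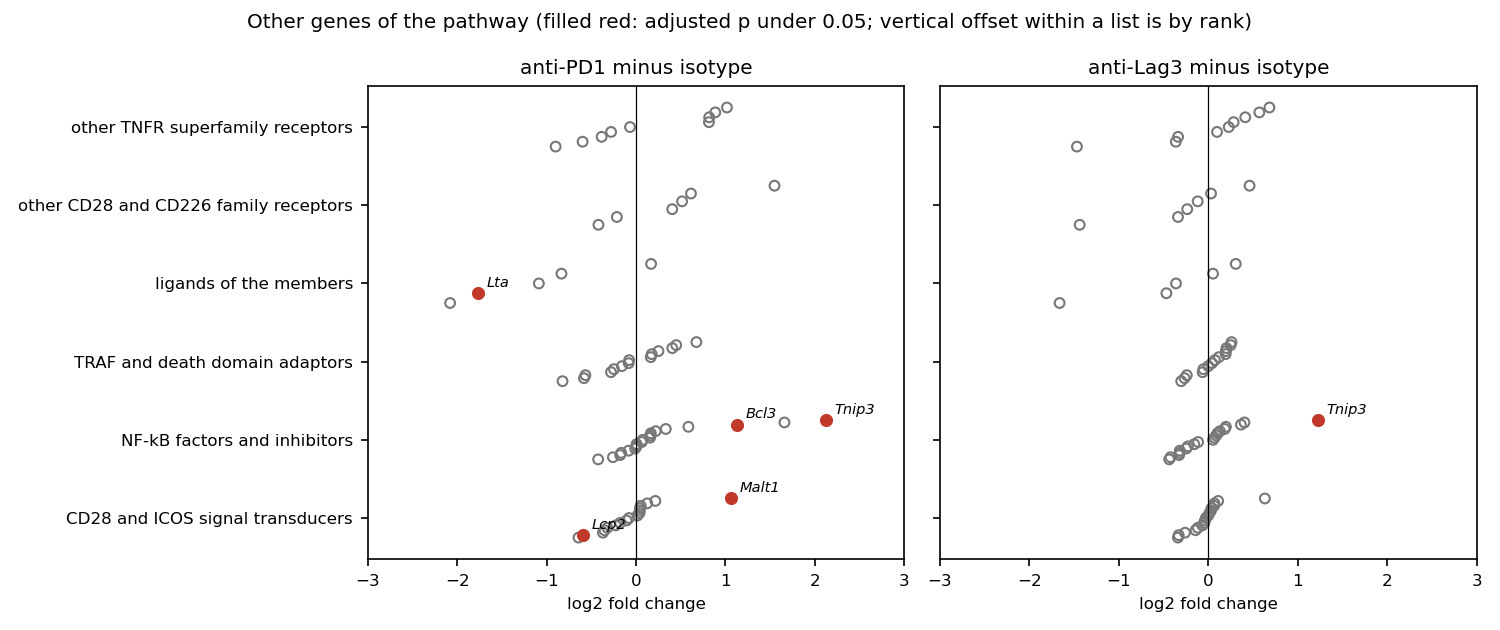
Log2 fold change of the tested genes of 6 pathway lists for anti-PD1 and for anti-Lag3 against isotype, with a circle per gene, ordered by value within a list, filled red and named where the edgeR adjusted p was under 0.05. With anti-PD1 5 genes were marked and with anti-Lag3 *Tnip3* alone.

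For each receptor whose group means spanned at least 0.5 on the log2 scale, the genes with the nearest profile were found by Euclidean distance between centred log2 CPM over the 6 samples, among genes with a mean of at least 20 CPM. The nearest to *Tnfrsf4* were *Pim1* (distance 0.21) and *Nabp1* (0.22), to *Tnfrsf9* *Miga1* (0.31) and *Jak2* (0.41), to *Tnfrsf18* *Samhd1* (0.17) and *Cd5* (0.18), and to *Icos* *Cnnm3* (0.12) and *Ptpn2* (0.15). *Cd226* was nearest to *Wbp1l* (0.61) and *Fchsd2* (0.66), and *Fas* to *Lad1* (0.45) and *Mdfic* (0.48). *Tnfrsf25*, whose samples differed more than its groups, had its nearest genes, *Tspan5* and *Ppp1r14b*, farther away, at 0.85 and 0.86. *Pim1* encodes a kinase induced by cytokines, *Jak2* a cytokine receptor kinase, *Cd5* an inhibitor of TCR signaling, and *Ptpn2* a phosphatase of JAK and STAT proteins. Functions of the other nearest genes, such as *Cnnm3*, *Samhd1*, and *Miga1*, are not given, and a shared function was not tested.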

How the data were processed

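Per the labels and the paper's methods, the authors made QuantSeq 3′ libraries, used Bbduk for trimming and STAR 2.5.2a for alignment to GRCm38 (mm10), and deposited raw read counts per Ensembl gene from HTSeq-count. The annotation release and the strand setting are not given in the sources used here. Their rlog table was not used, and a replicate batch excluded by the authors was not analysed here.

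Genes reaching a sum of 10 reads were fitted in edgeR 4.0.16 (R 4.3.3) with TMM scaling and the quasi-likelihood test, all 6 samples together by group, with Benjamini-Hochberg adjustment over 11877 genes and a threshold of 0.05. p-values measure only the spread between these samples, with each gene's spread drawn toward that of other genes (37.2 prior degrees of freedom). CPM are counts over TMM-scaled library sizes. Alternatives were DESeq2 1.42.0, limma-voom (3.58.1), other scalings and filters, a threshold of 0.1, each replicate left out, and the replicate number as a block. A fit without *Gm42418*, *mt-Rnr1*, and *mt-Rnr2* was chosen after seeing the data. The edgeR fit was also run on simulated counts with a single dispersion for all genes. That setting does not show how the fit handles genes whose spread differs. Symbols came from GENCODE (47224 of 47643 identifiers).

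The receptors and gene lists were chosen with earlier results of these data known. Named genes were the 10 receptors, the genes of each list that passed and its most abundant gene, *Nr4a3*, *Pdcd1*, *Lag3*, markers, and the 2 nearest profiles per receptor. *Sdf4*, *Ctla4*, *Pvr*, and the ligands at 0 or few reads were named outside this rule. Replicates differed by more than counting noise (chi-square per degree of freedom 2.65 to 3.29).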

Additional observations from a re-analysis of the deposited data

How the results depend on the processing

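Between anti-PD1 and isotype, the number of receptors passing was 5, or 1 to 5 when a replicate was left out, and the pathway genes from 1 to 6 around a value of 5. Between anti-Lag3 and isotype, 0 receptors passed, with 0 to 1 when a replicate was left out, 1 at a threshold of 0.1, and 2 when genes with a single read were kept. The pathway genes, 1 in that comparison, were 0 with DESeq2, limma-voom, the 4 samples alone, or filterByExpr, 2 with genes of a single read kept, and 0 to 2 with a replicate left out. Between the antibodies, 1 receptor passed, with 0 in DESeq2, 2 in limma-voom, at a threshold of 0.1, and with genes of a single read kept, and 0 to 2 with a replicate left out. The pathway genes, 3 there, were 0 with DESeq2, 5 with genes of a single read kept, and 0 to 3 with a replicate left out. The causes were not tested.

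The sources used here describe an excluded batch of 3 samples that were sorted together, and do not say whether the numbers 1 and 2 mark such batches. Deviations from the group means correlated at 0.04, 0.03, and −0.06 between the groups over 7138 genes. With the replicate number as a replicate block, 5 receptors passed between anti-PD1 and isotype, 1 between anti-Lag3 and isotype (*Tnfrsf18*), and 2 between the antibodies (*Tnfrsf4* and *Tnfrsf9*).

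No receptor that passed turned in direction under any setting. *Tnfrsf4* between anti-PD1 and isotype passed in all of them. *Fas* and *Tnfrsf25* had 110 and 126 reads over all samples, and their part in the wide intervals was not told apart from the spread between replicates.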

Other observations

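*Tnfrsf25* had 24, 34, and 27 reads in the samples numbered 1 of the isotype, anti-PD1, and anti-Lag3 groups and 10, 19, and 12 reads in those numbered 2. The difference on the log2 scale was 1.32, 0.99, and 1.21. *Cd27* was also higher in the samples numbered 1 (by 0.61, 0.22, and 0.17) and *Tnfrsf1b* lower (differences of −0.11, −0.34, and −1.15), and the other 7 receptors did not keep a sign over the 3 groups. The share of all genes that keep a sign is not given here, so no pattern particular to these receptors can be read from this. Over 7138 genes with a mean of at least 10 CPM, deviations correlated at 0.04, 0.03, and −0.06 between the groups.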
